A study of Drosophila melanogaster with 20 samples.

Results

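The chromosome arms 2L and 3L of Drosophila run from the telomere to pericentric heterochromatin, and their last, centromere-proximal stretches are described here. The members were the windows of 50 kb on 2L with a centre at 22000000 or further (dm3 coordinates) and those on 3L with a centre at 22900000 or further. This rule uses position only. It gave 490 of 27631 windows for H3K27me3, of which 167 lie on 2L and 323 on 3L, and the same 490 positions of 27611 windows for H3K27me2. Window centres reach 22830000 on 2L and 24510000 on 3L, that is 830 kb and 1610 kb beyond the cuts. Each end was compared with the 1 Mb of the same arm just distal to its cut (188 windows on 2L and 200 on 3L for H3K27me3, 185 and 200 for H3K27me2).

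The profiles came from salivary glands of 3rd instar larvae of SuUR mutants and of the y,w strain, which served as wild type, both kept at 23 °C. The labels give 20 pairs of glands as starting material and do not name the allele of SuUR. For H3K27me3 the CST antibody #9733 was used, and for H3K27me2 an antibody from Millipore. Each of the 4 profiles combines 1 ChIP library with 1 input library. With 1 profile per genotype and mark, differences between genotypes and between regions have no replicate check, no p-value is given, and the SD values below describe spread over windows along the chromosome.

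Pericentric heterochromatin consists mostly of satellite DNA and transposon remnants with scattered genes, such as light and concertina on 2L, and carries H3K9me2/3 and HP1. H3K27me3 and H3K27me2 are placed by PRC2. The trimethylated form is bound by Polycomb and marks repressed developmental genes, while the dimethylated form covers much of the silent genome. In polytene chromosomes of salivary glands the pericentric regions of all chromosomes join in the chromocenter, whose DNA is under-replicated. SUUR is a heterochromatin protein that slows replication forks there, and in SuUR mutants late-replicating regions gain DNA copies. Genes were not placed in the windows, since positions of genes in dm3 were not used here.

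H3K27me3 was lower in SuUR mutants than in wild type over most of both ends, while H3K27me2 was above the input in both genotypes. Over the 490 member windows, H3K27me3 log2(ChIP/input) averaged −0.20 in SuUR mutants (SD over windows 0.20) and 0.24 in wild type (SD 0.32). The difference, SuUR minus wild type, averaged −0.44 (SD 0.35), a ratio of 0.737. It was below 0 in 443 windows, or 90.4%, against 43.0% of all windows of the profiles, and above 0 in 42 windows, or 8.57%, against 56.3%. Of the member windows, 342 (69.8%) had a difference of −0.25 or lower, against 16.8% of all windows, and 6 (1.22%) had a difference of 0.25 or higher, against 21.7%. Neighbouring windows share most of their sequence, so these counts are not counts of independent measurements.

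On 2L, H3K27me3 averaged −0.21 in SuUR mutants (lowest window −0.65, median −0.26, highest 0.77) and 0.18 in wild type (lowest −0.53, median 0.16, highest 1.35). The mean difference in the 2L end was −0.39 (SD 0.37), and 145 of 167 windows were lower in SuUR mutants. On 3L, H3K27me3 averaged −0.19 in SuUR mutants (lowest −0.53, median −0.22, highest 0.31) and 0.27 in wild type (lowest −0.39, median 0.31, highest 1.13). The mean difference in the 3L end was −0.47 (SD 0.33), and 298 of 323 windows were lower in SuUR mutants. The ranges of the genotypes overlap on both arms, and the medians lie on opposite sides of 0.

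The position of these windows within each profile shows the same contrast. Quantile normalization had given the genotypes one distribution of values, so ranks can be set side by side. The median member window stood at percentile 26.9 of all H3K27me3 windows in SuUR mutants and at percentile 84.4 in wild type. On 2L the medians were at percentile 23.3 in SuUR mutants and 78.7 in wild type, and on 3L at percentile 29.3 in SuUR mutants and 86.3 in wild type. Windows below 0 in SuUR mutants and above 0 in wild type made up 322 of the 490, or 65.7%, against 16.5% of all windows. The opposite change of sign was found in 4 of the 490, against 4525 of the 27585 windows present for both marks.

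**Figure D1:**
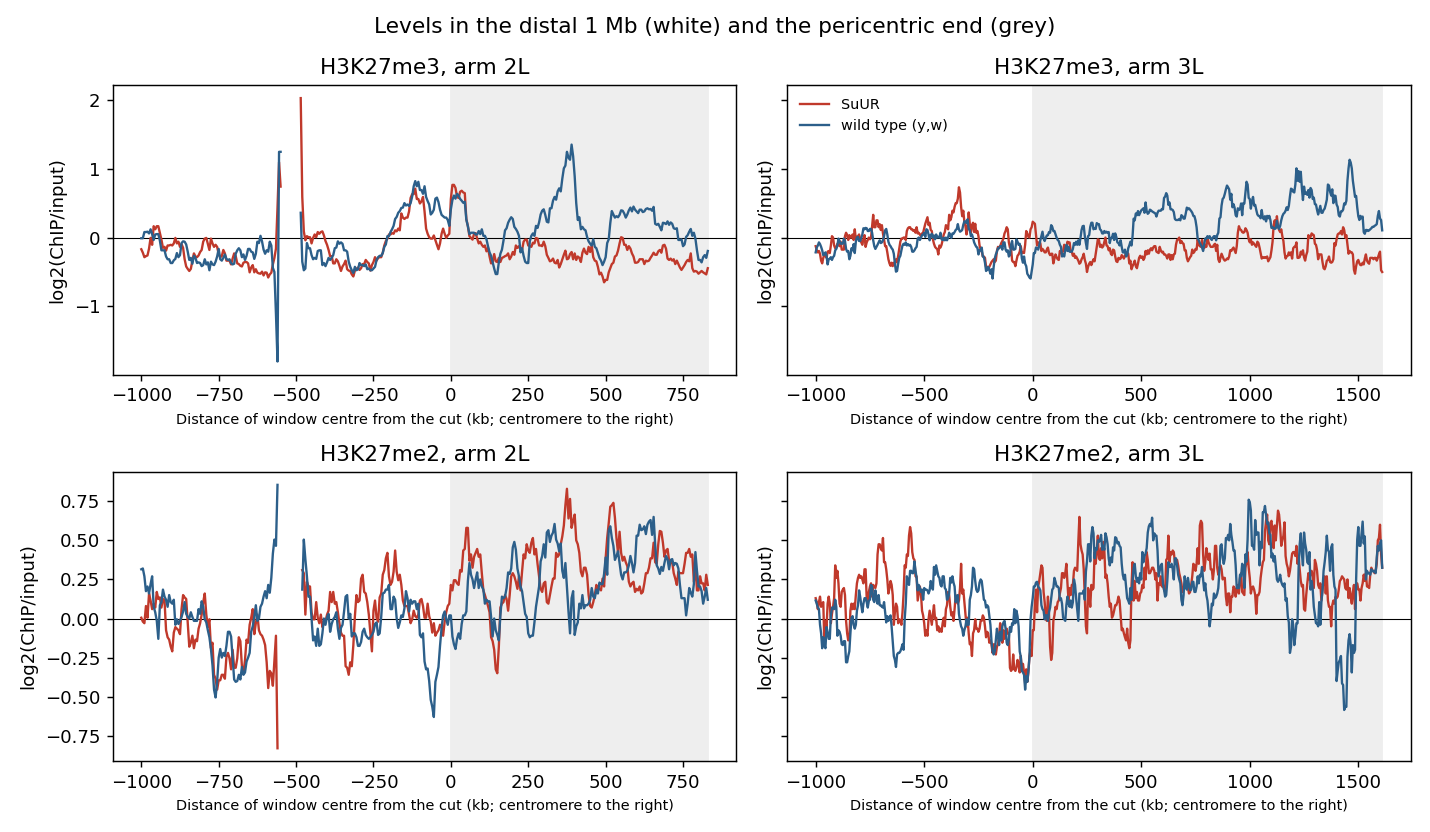
Log2(ChIP/input) of H3K27me3 (top) and H3K27me2 (bottom) in SuUR mutants and wild type (y,w), for windows of 50 kb plotted by the distance of their centre from the cut on 2L (left) and 3L (right). For H3K27me3 the genotypes lie apart over most of the pericentric end (grey), where means were −0.21 and 0.18 on 2L and −0.19 and 0.27 on 3L, in SuUR mutants and wild type. In the distal 1 Mb (white) they cross several times. Broken lines on 2L mark missing windows.

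The mean H3K27me3 difference in the distal 1 Mb was near 0 on 2L and above 0 on 3L. Over the rest of each arm, further from the centromere, it averaged 0.080 on 2L and 0.097 on 3L. The distal 1 Mb was thus near the rest of its arm on 3L and below it on 2L. On 2L, H3K27me3 in the distal 1 Mb averaged −0.12 in SuUR mutants and −0.096 in wild type, a difference of −0.024 (SD over windows 0.33). This mean covers stretches of opposite sign. From 700 to 600 kb distal to the cut the difference averaged −0.23, with 19 of 20 windows lower in SuUR mutants, and in the last 100 kb before the cut it averaged −0.35, with 20 of 20 lower. From 500 to 400 kb, beside missing windows, it averaged 0.42. On 3L, H3K27me3 in the distal 1 Mb averaged −0.027 in SuUR mutants and −0.115 in wild type, a difference of 0.087 (SD 0.20). The end thus differed from its distal neighbour by −0.36 on 2L and by −0.55 on 3L in the genotype difference. Differences of −0.25 or lower were found in 61.7% of windows of the 2L end, against 20.2% of the distal 1 Mb, and in 74.0% of windows of the 3L end, against 5.0%.

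Most of this contrast came from the wild type profile. From the distal 1 Mb to the end, the wild type mean was higher by 0.28 on 2L and by 0.39 on 3L. In SuUR mutants the end was lower than the distal 1 Mb, by −0.086 on 2L and −0.17 on 3L. H3K27me3 in wild type was thus above the input in 71.9% of windows of the 2L end and 78.9% of the 3L end, whereas in SuUR mutants these shares were 9.58% and 11.1%. Over all windows of the profiles the share was 37.7% in either genotype, so the ends stood above it in wild type and below it in SuUR mutants.

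The H3K27me3 difference did not change in 1 step at the cuts. On 2L, lower values in SuUR mutants were already present in the last 100 kb before the cut (0.105 in SuUR mutants and 0.46 in wild type), and the first 100 kb inside had like levels. At the cut on 2L, the first member window had 0.56 in SuUR mutants and 0.41 in wild type, and the last window outside had 0.055 and 0.17. At the cut on 3L, the first member window had 0.23 in SuUR mutants and −0.39 in wild type, and the last window outside had 0.15 and −0.495. On 3L the windows on both sides of the cut were thus higher in SuUR mutants, by 0.62 inside and by 0.645 outside.

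The beginning of the larger difference was defined as the first of at least 10 consecutive windows, which is 1 window width, with a difference more than 2 SD of the distal 1 Mb below its mean. The limit was −0.69 on 2L and −0.31 on 3L, from distal SDs of 0.33 and 0.20. Without windows near missing ones the 2L SD was 0.23. Windows past the limit were 31 of 167 in the 2L end and 215 of 323 in the 3L end. The beginnings on the arms are thus not like positions. In the last 100 kb before the cut on 2L the mean, −0.35, was past the 3L limit only. On 2L the run began with the window centred at 22320000 (chr2L:22295001-22345000), 320 kb inside the cut. It held 18 windows with a mean difference of −1.14. The beginning on 2L lay at 290 kb with 1 SD and at 350 kb with 3 SD, and no run was found when 20 consecutive windows were required. On 3L the first run began with the window centred at 23150000 (chr3L:23125001-23175000), 250 kb inside the cut, and held 10 windows with a mean difference of −0.45. On 3L the beginning was placed at 40 kb with 1 SD, at 465 kb with 3 SD and at 455 kb when 20 consecutive windows were required. A single step fitted by least squares lay at 285 kb on 2L, with −0.033 before and −0.555 after it, and at 210 kb on 3L, with 0.058 before and −0.52 after it. For H3K27me2 the fitted step lay in the distal 1 Mb on both arms, 460 kb before the cut on 2L (−0.11 before and 0.086 after it) and 545 kb before the cut on 3L (0.18 before and −0.041 after it). The fit places a step in any profile. On 2L this step lies beside missing windows, and the 20 H3K27me2 windows within 50 kb of them averaged −0.32, against 0.036 in the other windows of the distal 1 Mb. A fit without them was not made. A window averages 25 kb on either side of its centre, which limits the resolution of these positions.

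**Figure D2:**
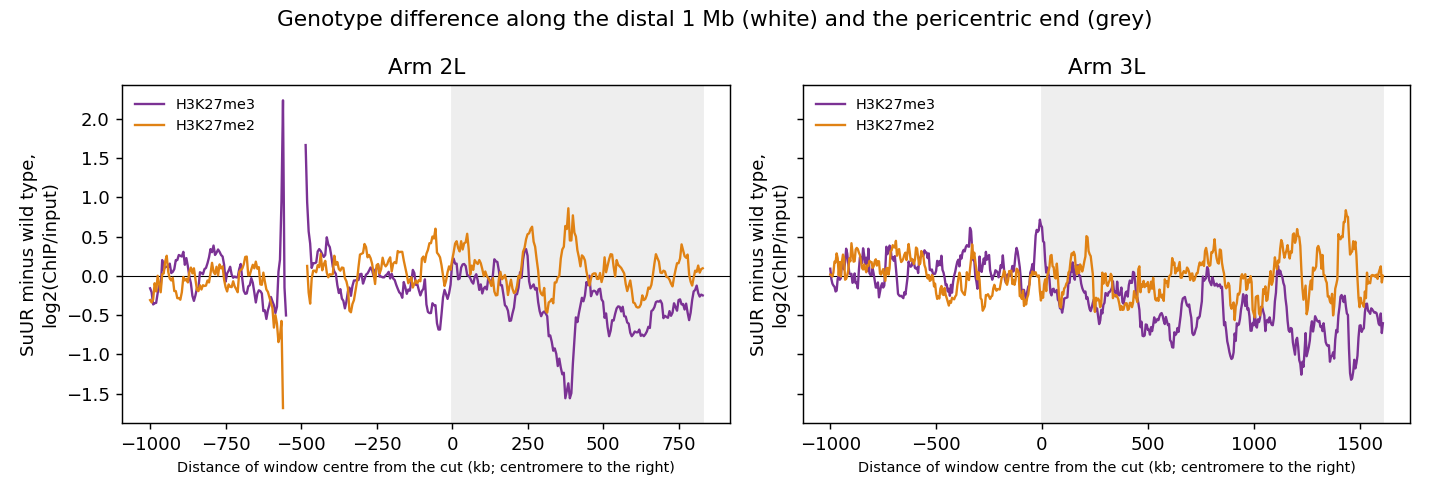
Difference in log2(ChIP/input), SuUR minus wild type, for H3K27me3 and H3K27me2 by distance of the window centre from the cut on 2L and 3L, with the distal 1 Mb in white and the pericentric end in grey. The H3K27me3 difference is lowest on 2L from 300 to 400 kb inside the cut (mean −1.02) and is below 0 over most of the 3L end, while the H3K27me2 difference lies on both sides of 0.

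In the first 200 kb of the ends the difference was small on average. On 2L it was −0.063 (SD 0.20), with 24 of 40 windows lower in SuUR mutants, and on 3L it was −0.077 (SD 0.24), also with 24 of 40 windows lower. From 200 to 300 kb on 2L the difference averaged −0.12, with 15 of 20 windows lower in SuUR mutants. Over all windows beyond 200 kb on 2L it averaged −0.49 (SD 0.36), with 121 of 127 lower. Beyond 300 kb on 2L, a border not used for 3L, H3K27me3 averaged −0.32 in SuUR mutants and 0.24 in wild type. The mean difference there was −0.56 (SD 0.33), with lower values in SuUR mutants in 106 of 107 windows. In the remaining window, centred at 22455000, the genotypes had equal values of −0.115. Beyond 200 kb on 3L, the means were −0.20 in SuUR mutants and 0.32 in wild type, with a mean difference of −0.52 (SD 0.30) and lower values in SuUR mutants in 274 of 283 windows. The 9 other windows lie in 3 short groups centred 430 to 435 kb, 780 to 785 kb and 1110 to 1130 kb from the cut, and their differences were between 0.015 and 0.125.

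The 2 arms differed in the course of the wild type signal. On 3L, wild type H3K27me3 was higher towards the centromere. From 200 to 500 kb it averaged 0.042, against −0.275 in SuUR mutants at the same positions. From 500 to 1000 kb the means were −0.16 in SuUR mutants and 0.34 in wild type, and beyond 1000 kb they were −0.19 and 0.45. The mean differences of these stretches were −0.32, −0.50 and −0.64. Across 33 non-overlapping windows of the 3L end, Pearson's r with distance from the cut was 0.66 for the wild type level (Spearman's rho 0.655), −0.023 for the SuUR level (rho 0.025) and −0.59 for the difference (rho −0.60). These windows come from the same libraries and are not replicates.

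On 2L the largest difference was local. The interval from 300 to 400 kb averaged −0.29 in SuUR mutants and 0.74 in wild type, a difference of −1.02, and it held the lowest difference of the 2L end, −1.56, in the window centred at 22375000 (−0.315 in SuUR mutants and 1.245 in wild type). Beyond it, intervals of 100 kb had differences between −0.58 and −0.21. From 400 to 500 kb the means were −0.32 in SuUR mutants and 0.013 in wild type, and from 600 to 700 kb they were −0.27 in SuUR mutants and 0.31 in wild type. The last 7 windows had −0.50 in SuUR mutants and −0.29 in wild type, so both genotypes were below the input at the edge of the profile. The last window ends at 22855000, whereas a region listed in the study reaches 22976899, so the arm continues beyond the windows and that part was not measured. Across 17 non-overlapping windows of the 2L end, r with distance was −0.086 for the wild type level and −0.66 for the SuUR level. The wild type level was thus related to distance on 3L in these profiles, and the SuUR level on 2L.

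By intervals of 100 kb, H3K27me3 was lower in SuUR mutants in 8 of 9 intervals of the 2L end and in 17 of 17 intervals of the 3L end. The exception was the first interval on 2L, with 0.35 in SuUR mutants and 0.32 in wild type. In the SuUR profile 1 of these 26 intervals had a mean above 0, against 22 in wild type. In the distal 1 Mb, H3K27me3 was lower in SuUR mutants in 5 of 10 intervals on 2L and 2 of 10 on 3L. Means above 0 were found there in 3 intervals on 2L and 4 on 3L in SuUR mutants, and in 2 and 3 in wild type. The lowest interval of the 3L end lies from 1200 to 1300 kb, with −0.145 in SuUR mutants and 0.72 in wild type. The lowest single window on 3L, centred at 24360000, had −0.195 in SuUR mutants and 1.13 in wild type, a difference of −1.325, and that wild type value was also the highest of the 3L end. The unbroken run of windows below 0 that reaches the last window held 75 windows on 2L (mean −0.46) and 96 windows on 3L (mean −0.70). Each was the longest such run of its whole arm.

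**Figure D3:**
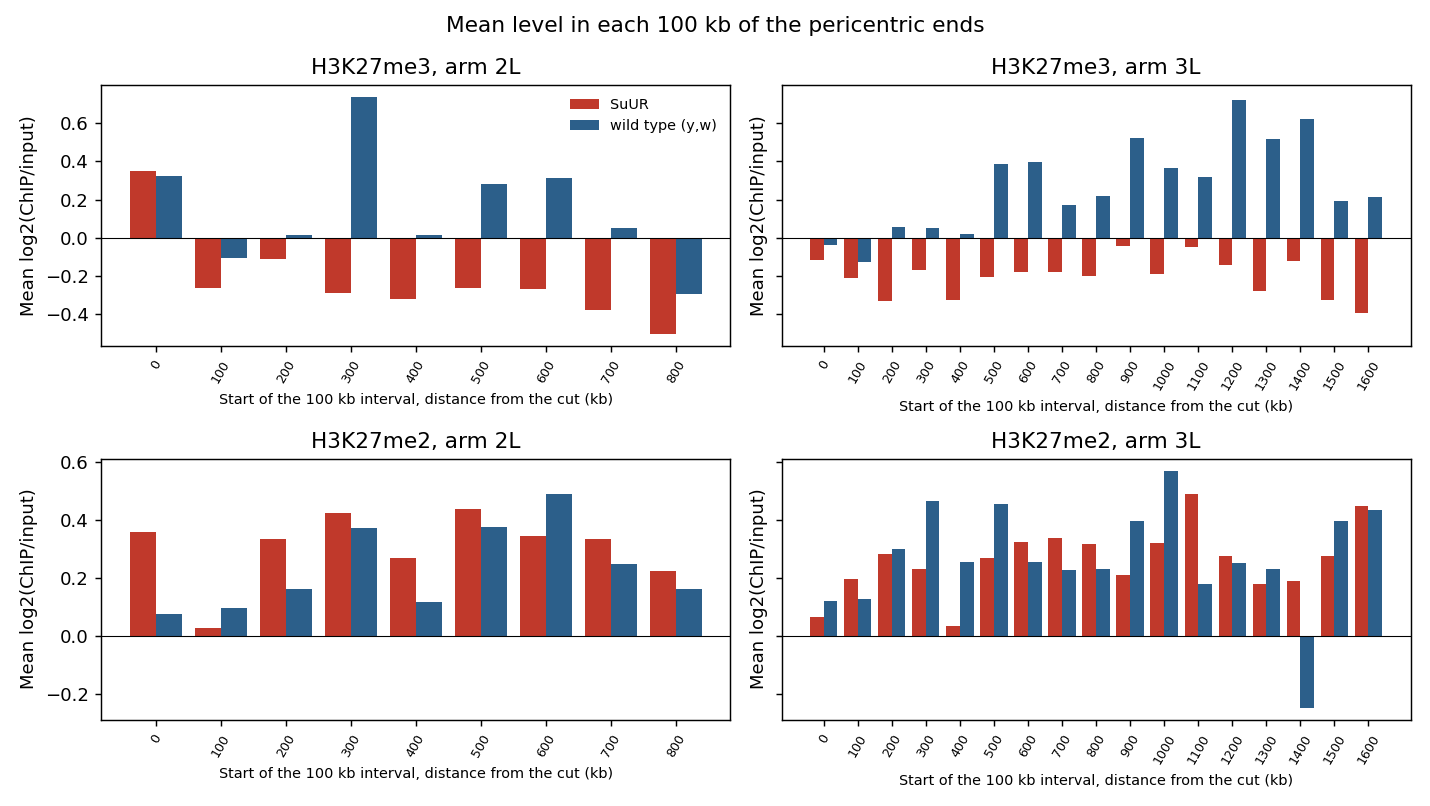
Mean log2(ChIP/input) of H3K27me3 (top) and H3K27me2 (bottom) in each 100 kb of the pericentric ends of 2L and 3L, in SuUR mutants and wild type (y,w). Intervals hold 20 windows, except the last ones with 7 on 2L and 3 on 3L. H3K27me3 bars point down in SuUR mutants, except in the first interval on 2L (0.35), and up in wild type in 22 of 26 intervals, and H3K27me2 bars point up in both genotypes except 1 wild type interval on 3L.

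Differences of −0.5 or lower were found in 209 member windows (42.7%, against 8.32% of all windows) and of 0.5 or higher in 1 (0.204%, against 5.16%). Within the arms they were concentrated in these ends. On 3L, 155 of the 185 windows with a difference of −0.5 or lower were members (83.8%), whereas members are 6.60% of the arm's windows. On 2L, 54 of 133 such windows were members (40.6%), with members being 3.67% of the arm. In the opposite direction, 0 of 223 windows on 2L and 1 of 225 windows on 3L with a difference of 0.5 or higher lay in the ends. Over 323 consecutive windows, as many as the 3L end holds, the lowest mean difference outside the ends was −0.16 on 2R and also on X, −0.12 on 2L, 0.0057 on 3L and 0.0014 on 3R. Over 167 consecutive windows, as in the 2L end, the lowest mean elsewhere was −0.32, on X, followed by −0.28 on 2L. Both X stretches reach the centre 22350000 and the longer 2R stretch runs from 755000 to 2365000, so these lie towards the centromeres of their arms. The shorter 2L stretch, centred from 16975000 to 17805000, does not. The quantile normalization covered all chromosomes, and the median H3K27me3 difference over the arms 2L, 2R, 3L, 3R and X was 0.075. With the normalization redone over these arms, this median was 0.011.

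In H3K27me2 the ends were enriched in both genotypes and the genotype difference was near 0. On 2L, H3K27me2 averaged 0.31 in SuUR mutants (lowest −0.35, median 0.29, highest 0.83) and 0.24 in wild type (lowest −0.195, median 0.23, highest 0.65). On 3L, it averaged 0.25 in SuUR mutants (lowest −0.265, median 0.25, highest 0.69) and 0.265 in wild type (lowest −0.585, median 0.27, highest 0.76). The ranges overlap on both arms, and 412 of 490 windows (84.1%) were above 0 in both genotypes, against 37.6% of all windows. The median member window stood at percentile 84.0 of the profile in SuUR mutants and likewise in wild type.

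The mean H3K27me2 difference was 0.074 in the 2L end (SD 0.26) and −0.014 in the 3L end (SD 0.27). In the distal 1 Mb it was −0.0032 on 2L and 0.016 on 3L. H3K27me2 was lower in SuUR mutants in 240 of 490 windows, or 49.0%, against 49.9% of all windows, and higher in 244, or 49.8%, against 49.3%. A difference of −0.25 or lower was found in 92 windows (18.8%, against 15.3% of all windows) and of 0.25 or higher in 101 windows (20.6%, against 15.4%). Past 0.5 there were 4 lower windows (0.816%, against 3.53%) and 23 higher ones (4.69%, against 3.95%). The H3K27me2 level itself was higher in the ends than in the distal 1 Mb in both genotypes, by 0.34 in SuUR mutants and 0.26 in wild type on 2L, and by 0.205 in SuUR mutants and 0.235 in wild type on 3L.

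The rule for the beginning of a difference found no run of lower H3K27me2 in SuUR mutants on either arm and no run of higher H3K27me2 on 2L. On 3L it found 1 run of 11 windows higher in SuUR mutants, which began with the window centred at 24300000, 1400 kb inside the cut, and had a mean difference of 0.61. This run was not found with 3 SD or with 20 windows, and with 1 SD the first run began 715 kb distal to the cut. The interval from 1400 to 1500 kb had 0.19 in SuUR mutants and −0.25 in wild type, and this was the lowest wild type interval of the 3L end for the mark. By intervals of 100 kb the H3K27me2 difference changed sign repeatedly. On 3L it was between −0.25 and −0.19 in the 3 intervals from 300 to 600 kb and in the 2 from 900 to 1100 kb, with 18 or 20 of 20 windows lower in SuUR mutants in each, and it was 0.31 from 1100 to 1200 kb, with 20 of 20 higher. On 2L it was highest in the first interval, with 0.36 in SuUR mutants and 0.078 in wild type and 20 of 20 windows higher in SuUR mutants. On 3L from 1400 to 1500 kb, H3K27me3 averaged −0.12 in SuUR mutants and 0.62 in wild type. A similar pair lies on 2L, where the H3K27me2 difference was highest, 0.86, in the window centred at 22385000 (0.765 in SuUR mutants and −0.095 in wild type). That window lies 10 kb from the one with the lowest H3K27me3 difference of the 2L end. Not all places paired in this way. The lowest H3K27me2 difference of the 3L end, −0.565, lay in the window centred at 23810000, where the H3K27me3 difference was −0.735. The lowest H3K27me3 interval of the 3L end, from 1200 to 1300 kb, had a mean H3K27me2 difference of 0.026. Its windows ranged from −0.49 to 0.595. At 1205 kb the differences were 0.595 for H3K27me2 and −0.79 for H3K27me3, and at 1250 kb they were −0.49 and −1.025. This interval was thus mixed.

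The differences of the marks were only weakly related over the ends as a whole. Across 50 non-overlapping windows of both ends, Pearson's r between the H3K27me3 and the H3K27me2 difference was 0.10 (Spearman's rho 0.23). In the same windows, r between SuUR mutants and wild type was 0.18 for H3K27me3 levels (rho 0.22) and 0.049 for H3K27me2 levels (rho −0.017). By arm, r for H3K27me3 levels was 0.32 on 2L (rho 0.35) and 0.0054 on 3L (rho 0.13). For H3K27me2 levels r was 0.10 on 2L (rho −0.062) and 0.039 on 3L (rho −0.045). The pattern of high and low windows was thus little shared between the genotypes for either mark. Which mark and arm had the lowest value depends on the coefficient used. With 1 profile per genotype and mark, a changed pattern cannot be told apart from noise. When the H3K27me2 difference was subtracted from that of H3K27me3, the 490 windows averaged −0.46 (SD 0.42) and 442 of them were below 0 (90.2%), against 45.1% of all windows. In the distal 1 Mb this value averaged −0.027 on 2L and 0.071 on 3L. H3K27me3 was lower and H3K27me2 higher in SuUR mutants in 212 windows (43.3%, against 21.2% of all windows). Both marks were lower in 226 (46.1%, against 21.4%).

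**Figure D4:**
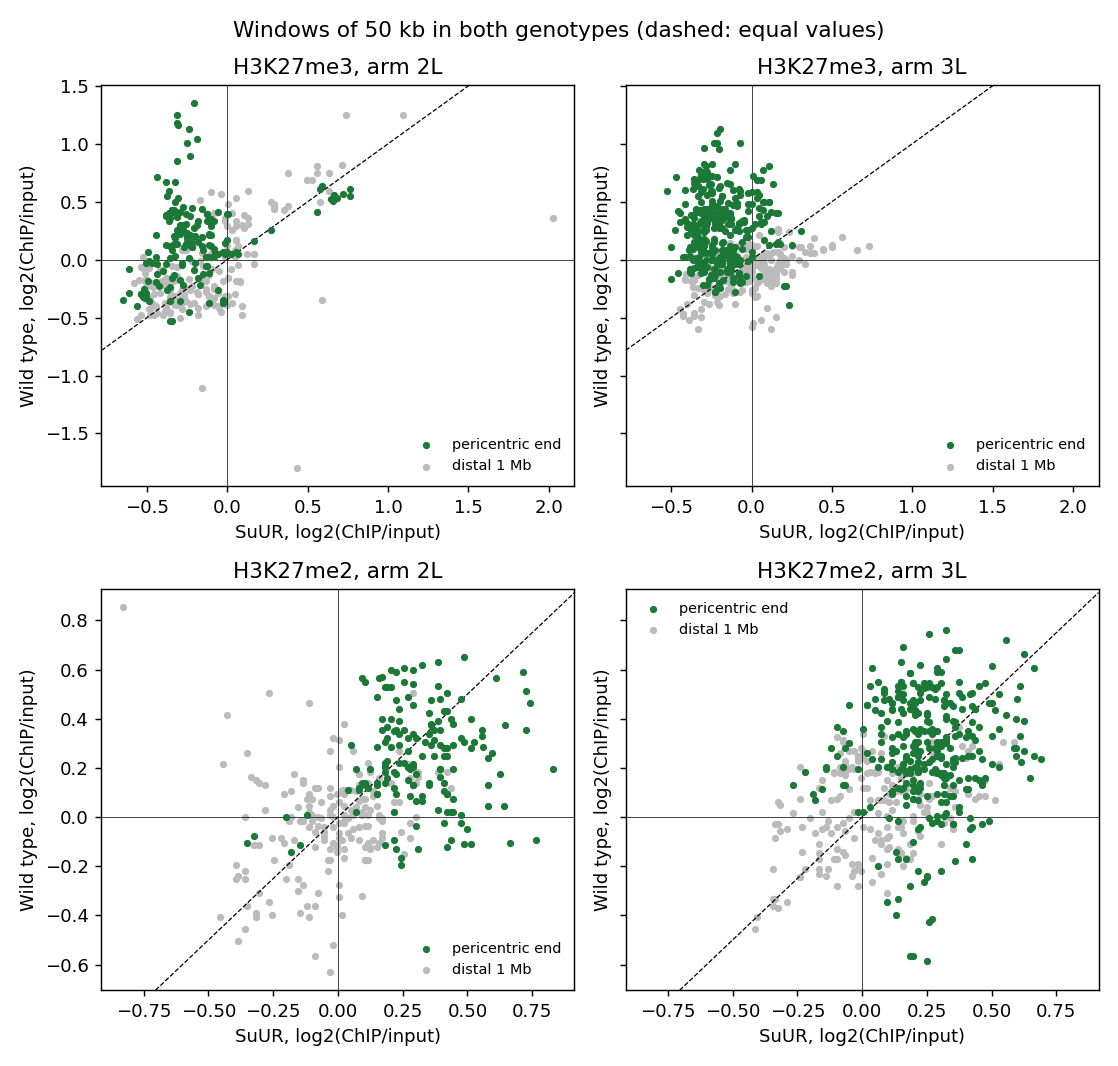
Log2(ChIP/input) in SuUR mutants (horizontal) and wild type (vertical) for windows of 50 kb in the pericentric ends (green) and the distal 1 Mb (grey), for H3K27me3 (top) and H3K27me2 (bottom) on 2L and 3L. For H3K27me3, 443 of 490 green points lie above the dashed line of equal values, whereas for H3K27me2, 240 of 490 do.

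Region lists published with the study served as annotation. SSRs are regions in which H3K27me3 had been found to be sensitive to SuUR mutation on separate ChIP-chip profiles, and SNRs are regions with H3K27me3 insensitive to it. The lists were made for the same contrast, so they are not independent evidence of its direction. One SSR covers most of the 2L end (chr2L:22032120-22976899) and another covers most of the 3L end (chr3L:22947810-24526499). They contain 160 of the 167 and 313 of the 323 window centres. In the first, H3K27me3 averaged −0.24 in SuUR mutants and 0.165 in wild type, with 143 of 160 windows lower in SuUR mutants. In the second, it averaged −0.20 in SuUR mutants and 0.29 in wild type, with 295 of 313 windows lower. The listed borders lie 32.1 and 47.8 kb inside the cuts, so that the SSRs begin distal to the steps fitted above at 285 and 210 kb.

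The first interval of the 2L end, in which the genotypes had like levels, includes an SNR (chr2L:22016270-22032120). The 3 windows centred in it had 0.61 in SuUR mutants and 0.60 in wild type for H3K27me3, and 0.25 and −0.12 for H3K27me2. Distal to it lies a further SSR (chr2L:21906080-22016270), mostly in the distal 1 Mb, with H3K27me3 of 0.18 in SuUR mutants and 0.45 in wild type over 22 windows and a difference of −0.27. On 2L a stretch of lower H3K27me3 in SuUR mutants thus precedes the cut and is separated by windows of like level from the larger difference inside the end. The 2 SSRs in the distal 1 Mb of 3L had H3K27me3 differences of 0.034 and 0.15. A listed under-replicated region on 2L reaches 163 kb into the end, and over its 33 member windows and the 63 distal to the cut the H3K27me3 difference averaged −0.094. On 3L no listed under-replicated region reaches into the end.

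The scaffolds 2LHet and 3LHet hold heterochromatic sequence of the same arms and are the parts of the assembly most like the ends. The H3K27me3 difference averaged −0.45 on 2LHet (61 windows, −0.15 in SuUR mutants and 0.30 in wild type) and −0.42 on 3LHet (498 windows, −0.21 in SuUR mutants and 0.21 in wild type). The ends of 2L and 3L, with −0.39 and −0.47, had values near those of the scaffolds. The H3K27me2 difference averaged 0.18 on 2LHet and −0.025 on 3LHet, against 0.074 and −0.014 in the ends. The spread over windows was larger on 3LHet, with an SD of 0.54 for H3K27me3 against 0.33 in the 3L end.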

How the data were processed

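The authors sequenced paired-end libraries, mapped the reads to BDGP R5/dm3 with MOSAIK (option -m all), calculated RPM for ChIP and input and deposited log2 values of their ratio for windows of 50 kb at steps of 5 kb. Within each mark the deposited log2 values are quantile normalized, since sorted values of the genotypes differ by 0 at most, so a change of the whole genome cannot appear. How reads with several matching positions were counted bears on pericentric windows, and its effect was not tested. The depth of the libraries is unknown, because the profiles hold no read numbers, and counting intervals were not calculated. Per the methods, ChIP-seq was made on 3 biological replicates, with no tissue or antibody named for them, and with a number of gland pairs other than that in the labels. Whether a gland profile pools replicates is therefore not known. The 12 embryo libraries were not analysed here.

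Windows were placed by their centres. Differences are SuUR minus wild type on the log2 scale. A difference of 0.25 was the limit for counts, and the share over all windows stands beside them. Regions were named by a rule (the ends, their distal 1 Mb, the windows where a difference begins, the lowest and highest windows and the listed regions that overlap these). Members, lists and rules were chosen with earlier results of these data known. Alternatives changed the windows used, the normalization, the centring, the limit, the length of the distal stretch and the rule for the beginning. The rule and the step fit were tested on simulated profiles, and the rule also found runs in some profiles simulated without a step. Calculations were run in Python 3.11.15 (pandas 2.3.3, numpy 2.4.6 and scipy 1.17.1), and plots were drawn with matplotlib 3.10.9.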

Additional observations from a re-analysis of the deposited data

How the results depend on the processing

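Of 101 values under alternatives, 20 moved and 81 did not, where means were judged against the SD over single windows, a wide limit. Alternatives under which a run was lost, and runs found only under an alternative, are not among the 101 and are given below. H3K27me3 means and contrasts kept their sign, with contrasts of −0.41 to −0.28 on 2L and −0.58 to −0.50 on 3L. The H3K27me2 contrast on 2L (0.077) was 0.015 with medians and 0.038 without windows near missing ones, and on 3L (−0.030) it was −0.0063 against the distal 2 Mb. The share of windows with an H3K27me3 difference of −0.25 or lower (61.7% on 2L, 74.0% on 3L) was 70.1% and 79.6% after quantile normalization over the arms, 71.3% and 81.4% after the arm's median was subtracted, and 32.3% and 48.0% with a limit of 0.5. The share with 0.25 or higher (1.80% on 2L, 0.929% on 3L) was 5.88% and 3.03% over non-overlapping windows and 0% and 0.310% with a limit of 0.5. It was 0.599% on 2L after the median was subtracted and 0% on 3L without windows near the cut and the last window. With a limit of 0.5, the lower H3K27me2 shares (10.2% and 23.2%) were 0% and 1.24%, and the higher ones (23.4% and 19.2%) were 6.59% and 3.72%. The H3K27me3 difference on 3L began at 250 kb, but at 465 kb with 3 SD, 40 kb with 1 SD and 455 kb with 20 windows. The H3K27me2 run on 3L at 1400 kb moved to −715 kb with 1 SD and was not found with 3 SD or 20 windows. On 2L, no H3K27me3 run of 20 windows was found. With 1 SD, H3K27me2 runs not found with 2 SD began on 2L at −605 kb (lower in SuUR mutants) and 5 kb (higher) and on 3L at −455 kb (lower), and an H3K27me3 run higher in SuUR mutants began on 3L at −375 kb. The cause was not tested. In the distal 1 Mb of 2L, 20 H3K27me3 windows within 50 kb of missing windows ranged from −0.505 to 2.235 in their difference. Without them (a choice made after seeing the data) the beginning on 2L stayed at 320 kb and the distal mean was −0.063. No paired analysis was possible because each genotype has 1 profile per mark.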

Other observations

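The centromere-proximal 1 Mb of the other arms was measured in the same profiles. On 2R, whose proximal end is at the start of the arm, H3K27me3 averaged −0.175 in SuUR mutants and −0.051 in wild type (difference −0.12, SD over windows 0.23, 146 of 201 windows lower in SuUR mutants). On X the means were −0.19 in SuUR mutants and 0.058 in wild type (difference −0.25, SD 0.46, 136 of 194 windows lower). On 3R they were −0.038 in SuUR mutants and −0.11 in wild type (difference 0.068, SD 0.22, 78 of 201 windows lower). The H3K27me2 difference in these stretches was between −0.029 and −0.0058. How far each assembled arm reaches into heterochromatin was not measured here, so the arms cannot be ordered by these values.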
